A study of Mus musculus with 34 samples.

Results

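In bone marrow-derived dendritic cells (BMDCs), 1477 of 8185 STAT5 peaks of WT cells without LPS, taken after renewed GM-CSF, shared at least 1 bp with a p65 peak of LPS-stimulated WT cells. These 1477 regions, 18% (17.2–18.9) of the STAT5 sites, are described here as shared sites, and the remaining 6708 as other STAT5 sites. The shared sites were chosen by measured values, namely the positions of the peaks in these 2 lists, so the p65 signal that defined them is given as a description. They met 1475 of the 5465 p65 peaks of the LPS-stimulated cells, or 27% of them (25.8–28.2). Numbers in parentheses after a share or a difference are 95% intervals, which cover counting error only.

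The study profiled BMDCs of C57BL/6 mice by ChIP-seq to ask how the architectural protein CTCF shapes gene regulation in these cells. WT cells carried the tamoxifen-inducible Cre recombinase CreER alone, and KO cells carried CreER together with loxP-flanked Ctcf alleles (CTCF fl/fl). Cells of both genotypes, from mice that the labels give as 8 weeks old, were grown for 6 days in GM-CSF and received 4-OH tamoxifen on the first day, so WT cells were exposed to active Cre as well. Both were left without LPS (WT, KO) or received LPS at 100 ng/ml for 3 h (WTLPS, KOLPS). STAT5 was profiled in WT and KO alone, after renewed GM-CSF for 15 min, whereas the p65 peaks that define the shared sites came from LPS-stimulated cells. Thus both factors were found at the same position in different cultures, and binding to the same DNA molecule at the same time was not measured. The catalogue number of the STAT5 antibody in the labels is that of STAT5 in the study's methods, while the number the methods give for ChIP is listed there for phosphorylated STAT5, so whether the peaks show all STAT5 or its phosphorylated form cannot be told apart here. Each antibody and condition had 1 peak list, without separate replicates, so no test against replicate error could be made.

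STAT5 is a latent transcription factor that the receptor of GM-CSF activates through JAK2, which phosphorylates it and sends it to the nucleus as a dimer that reads a palindromic DNA motif. The p65 protein (RelA) is the main activating subunit of NF-κB. It is held in the cytoplasm by IκB proteins until LPS, the bacterial ligand of TLR4, triggers their degradation. GM-CSF and STAT5 support the growth and survival of these cells, and NF-κB drives their inflammatory and maturation genes. Cohesin, of which SMC1 is a core subunit, extrudes DNA loops that CTCF halts. H3K27ac marks active enhancers and promoters, H3K4me1 marks enhancers, H3K4me3 marks promoters and H3K27me3 marks Polycomb-repressed chromatin.

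The sequences below are 6 of the strongest shared sites that held a STAT motif and a κB motif within 50 bp of the STAT5 summit. The STAT motif was TTCNNNGAA, and the κB motif is known by its name. Each run shows the plus strand of GRCm38 from 50 bp before to 50 bp after the STAT5 summit, with matches to either motif in capitals.
Site 1, chr15:5432205-5432305: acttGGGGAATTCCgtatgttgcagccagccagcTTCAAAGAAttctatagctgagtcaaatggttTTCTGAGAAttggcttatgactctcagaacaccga
Site 2, chr10:37338389-37338489: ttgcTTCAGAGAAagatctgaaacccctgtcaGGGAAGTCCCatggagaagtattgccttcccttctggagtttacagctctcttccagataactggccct
Site 3, chr10:96371013-96371113: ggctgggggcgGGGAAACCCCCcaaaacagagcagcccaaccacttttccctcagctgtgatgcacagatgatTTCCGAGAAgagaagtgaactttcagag
Site 4, chr19:16086673-16086773: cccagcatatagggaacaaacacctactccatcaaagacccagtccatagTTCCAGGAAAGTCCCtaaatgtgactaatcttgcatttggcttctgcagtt
Site 5, chr10:14174288-14174388: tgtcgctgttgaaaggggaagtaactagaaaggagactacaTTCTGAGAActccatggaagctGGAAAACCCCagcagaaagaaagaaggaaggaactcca
Site 6, chr15:78334572-78334672: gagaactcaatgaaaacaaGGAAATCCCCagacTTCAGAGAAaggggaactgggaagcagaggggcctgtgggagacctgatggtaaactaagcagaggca

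Site 1 lay outside genes, 190 kb upstream of Ptger4, a receptor for prostaglandin E2, and held 2 STAT motifs. Its STAT5 fold over local background was 52.4 in WT and 41.4 in KO, and its p65 fold was 19.4 in WTLPS with no peak in KOLPS. Site 2, at the promoter of the annotated gene Gm26535, had the highest p65 fold of these 6 sites, 44.2 in WTLPS, and still 34.1 in KOLPS. Site 3 lay outside genes, 234460 bp from the nearest protein-coding start, Gm5426, and its capitals hold overlapping κB matches. Site 4 lay 46.1 kb upstream of Gnaq, a G protein subunit, and its STAT and κB matches overlap. Site 5 lay 207959 bp downstream of the start of Hivep2, which encodes a zinc-finger protein. Site 6 lay in an intron of Csf2rb, the signalling chain of the GM-CSF receptor, 8575 bp downstream of its start. Its STAT5 fold was 20.2 in WT and 14.4 in KO, and its p65 fold was 12.3 in WT, 15.6 in WTLPS and 7.71 in KOLPS, without a peak in KO. All 6 kept a STAT5 peak in KO, and 4 of the 6 kept a p65 peak in KOLPS.

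Further sequences show 4 shared sites at genes of known STAT5 or LPS response. There a STAT motif, but no match to the κB pattern searched here, lay within 50 bp of the STAT5 summit. Looser κB-like letters, such as those near the end of the Cd40 run, were not counted. Capitals mark the STAT motif.
Cish, chr9:107296635-107296735: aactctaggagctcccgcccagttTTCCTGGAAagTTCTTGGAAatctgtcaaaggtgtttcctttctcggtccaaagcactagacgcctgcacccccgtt
Socs3, chr11:117946492-117946592: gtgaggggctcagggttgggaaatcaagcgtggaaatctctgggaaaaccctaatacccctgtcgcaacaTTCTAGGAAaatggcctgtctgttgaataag
Il1a, chr2:129320419-129320519: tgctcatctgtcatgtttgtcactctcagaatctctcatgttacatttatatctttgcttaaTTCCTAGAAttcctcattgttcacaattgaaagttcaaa
Cd40, chr2:165055141-165055241: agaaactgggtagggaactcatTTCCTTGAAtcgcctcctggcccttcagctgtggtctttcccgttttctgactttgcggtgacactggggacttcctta

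The STAT motif was less frequent at the shared sites than at other STAT5 sites. It lay within 50 bp of the STAT5 summit at 344 shared sites, or 23.3% (21.2–25.5), and at 41.1% (39.9–42.3) of the other STAT5 sites, against 37.9% of all STAT5 sites and 3.35% of windows 1 kb from the summits. At equal STAT5 strength, meaning within 10 groups of equal size ranked by the −log10 q of the WT peak, the difference was −20.4 percentage points (−22.7 to −18.0). Conversely, the κB motif lay near 6.91% (5.72–8.31) of the STAT5 summits of shared sites and 1.97% (1.66–2.33) of those of other STAT5 sites, against 2.86% of all. Both motifs together were found at 32 shared sites (2.17%) and 57 other STAT5 sites (0.85%).

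Motifs of other factors of these cells differed less. The C/EBP motif TTGCNNAA lay at 10.1% of shared and 5.69% of other STAT5 sites, against 6.49% of all, with 4.47% in the windows 1 kb away. The AP-1 motif TGANTCA lay at 11.4% of shared and 8.59% of other STAT5 sites, against 9.1% of all. The PU.1 core GAGGAAG lay at 148 shared sites and 9.18% of the other STAT5 sites, with 9.33% of all, and the difference of 0.837 points had an interval from −0.761 to 2.6. All motifs were searched on both strands, and a match describes letters, not binding. At the p65 summits, the κB motif lay at 10.2% of the p65 peaks with STAT5 and 499 of the 3990 without, a difference of −2.34 points (−4.13 to −0.415). The STAT motif lay at 10.4% and 2.81% of the same summits.

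**Figure D1:**
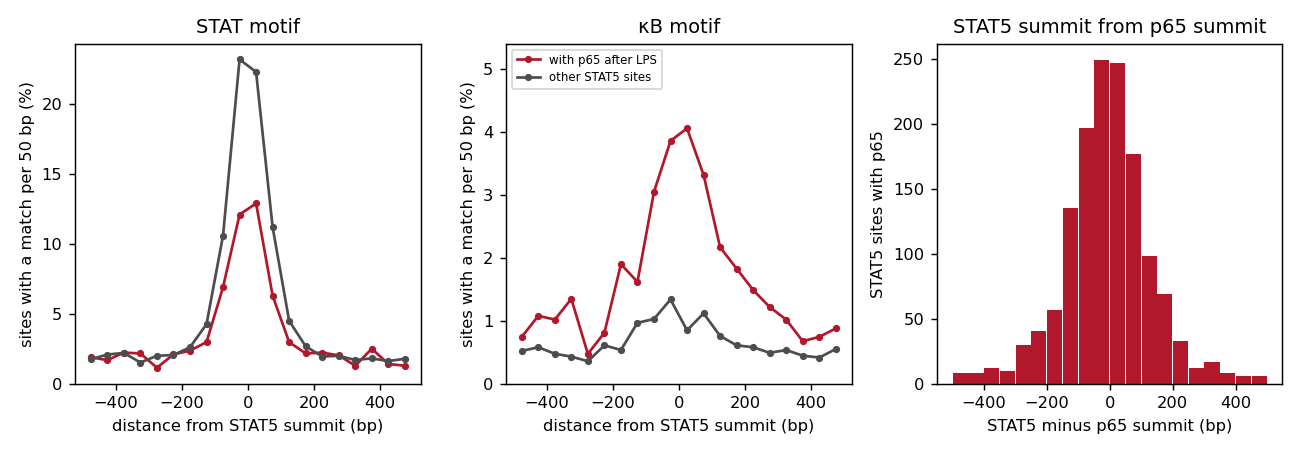
Share of sites with a STAT motif (left) or κB motif (middle) in each 50 bp bin, by distance from the STAT5 summit in bp, for the 1477 shared sites (red) and the 6708 other STAT5 sites (grey), and (right) number of shared sites by the distance from the p65 summit to the STAT5 summit within 500 bp. The STAT motif curve of the shared sites peaks at 12.9%, against 23.2% at the other sites, and lies below theirs within 100 bp of the summit, while the κB curve peaks at 4.06% and lies above theirs.

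The summits of both factors lay close together. Their median distance was 80 bp (quartiles 35 and 151 bp), 33.8% were within 50 bp and 11.8% were more than 250 bp apart. The p65 peak covered a median of 76.1% of the STAT5 peak. Of the shared sites, 1466 met a single p65 peak and 11 met more. At the edge of the rule, the smallest overlaps were 3, 7 and 9 bp and 16 sites shared under 50 bp, whereas the nearest other STAT5 sites lay 0, 5 and 5 bp from a p65 peak and 85 lay within 500 bp of one.

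Shared sites were somewhat stronger and wider in the STAT5 list than the other STAT5 sites. Their median STAT5 fold in WT was 8.59 (quartiles 6.37 and 14.2) against 7.63 (5.78 and 11.2), and their median width was 424 bp against 340 bp. Their median p65 fold in WTLPS was 8.08 against 7.01 at the 3990 p65 peaks without STAT5. A wider peak meets another peak more easily, so the main shares were also computed over the STAT5 summit alone.

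The KO list of STAT5 held 6850 peaks, at a higher library coverage (1.70 fragments per background base) than the WT list (1.33). A STAT5 peak was present in KO at 1059 shared sites, or 71.7% (69.3–73.9), and at 63.3% (62.1–64.4) of the other STAT5 sites, against 64.8% of all. The raw difference was 8.43 points (5.82–11). At equal WT strength it was 3.21 points (1.16–5.26), and the groups leave differences in strength within them. It included 0 where peaks had to reach a −log10 p of 10 (1.54, −1.2 to 4.28), where the summit had to lie inside the partner peak (1.42, −0.779 to 3.62), and within groups of equal peak width (0.232, −1.85 to 2.31), an alternative added after the data were seen.

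STAT5 presence in KO followed the strength of the WT peak. In the weakest of the 10 groups 26 of 111 shared sites (23.4%) kept a STAT5 peak, and in the strongest group 221 of 221 did. The median WT fold was 10.7 at shared sites with a KO peak and 6.01 at those without. Where both lists had a peak, the median fold was 10.7 in WT and 8.5 in KO, and KO was lower at 853 of 1059 sites (80.5%). The other STAT5 sites gave 9.85 and 8.13, with KO lower at 74.3%. Shared sites with a STAT motif kept STAT5 more often, at 89.2% (85.5–92.1), than those without, at 66.4% (63.6–69.1), and at equal strength the difference was 3.36 points (0.518–6.21), again with differences in strength left within the groups.

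The p65 peaks were kept less often. The number of p65 peaks rose with LPS from 781 to 5465 in WT cells and from 504 to 1752 in KO cells, at coverages of 0.713 and 0.855 in WT cells and 0.705 and 0.817 in KO cells. Of the shared sites, all with a p65 peak in WTLPS by the rule, 542 had one in KOLPS, or 36.7% (34.3–39.2), against 7.17% of all STAT5 sites. Before LPS, 19.5% (17.6–21.6) already had a p65 peak in WT and 13.5% (11.9–15.4) in KO, against 3.65% and 2.47% of all STAT5 sites. These p65 shares of all STAT5 sites are low largely by the rule, which leaves the other STAT5 sites without p65 in WTLPS. A p65 peak in WTLPS alone was the most frequent pattern over the 4 conditions, at 865 shared sites (58.6%), followed by WTLPS and KOLPS at 284 (19.2%) and all 4 conditions at 150 (10.2%).

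Among the p65 peaks of WTLPS, those with STAT5 were kept more often than those without. A KOLPS peak was present at 36.9% (34.5–39.4) of the 1475 p65 peaks with STAT5 and 17.5% (16.3–18.7) of the 3990 without, against 22.7% of all 5465. At equal p65 strength the difference was 13.3 points (10.9–15.7), and 12.5 (10.1–14.9) where each strength group was also split by H3K27ac in WTLPS, a split added after the data were seen. The p65 peaks with STAT5 also had p65 before LPS more often, at 20.1% against 10.8% in WT and 13.6% against 5.39% in KO. No comparison was split by p65 before LPS. In the strongest group, 197 of 225 p65 peaks with STAT5 (87.6%) and 222 of 321 without (69.2%) were kept. Where kept, the p65 fold at shared sites fell from a median of 12.4 in WTLPS to 8.81 in KOLPS, and at the other p65 peaks from 11.5 to 8.26.

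**Figure D2:**
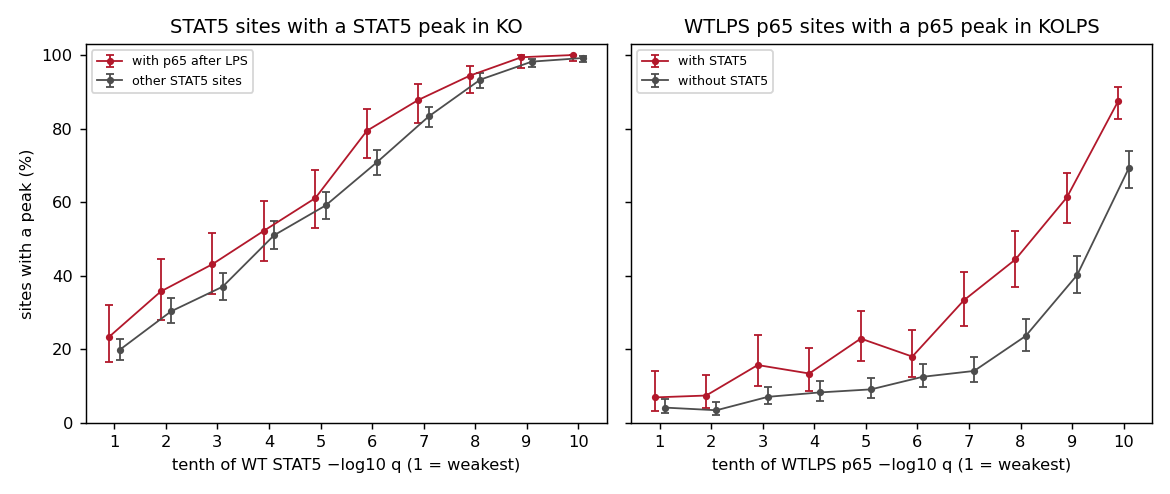
Share of sites with a peak in the knockout list (percent, with 95% Wilson intervals) by group of peak strength (10 groups, weakest to strongest) in the wild-type list: left, STAT5 sites in KO, for shared sites (red) and other STAT5 sites (grey); right, WTLPS p65 peaks in KOLPS, with STAT5 (red) and without (grey). The left curves lie close together from 23.4% and 19.8% in the weakest group to 100% and 99.2% in the strongest, and the right curves end apart, at 87.6% and 69.2%.

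Shared sites with p65 before LPS kept it more often. Of the 288 shared sites with a p65 peak in WT, 77.4% had one in KOLPS, and of the 1189 without, 26.8% did, a difference of 50.6 points (44.8–55.7). STAT5 in KO was present at 72.6% and 71.5% of these sites, a difference of 1.08 points (−4.89 to 6.58). Shared sites with a κB motif at the p65 summit had p65 in KOLPS at 48.7%, against 35.3% without, and had p65 in WT at 43.3% against 16.8%. Shared sites with a STAT motif had p65 in KOLPS less often, at 30.5% (25.9–35.6) against 38.6% (35.8–41.4). None of these p65 shares was compared at equal p65 strength. Shared sites that kept p65 in KOLPS had a median p65 fold in WTLPS of 12.4, against 7.01 at those that did not.

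Losses of both factors overlapped in part. STAT5 in KO and p65 in KOLPS were both present at 403 shared sites (27.3%), STAT5 alone at 656 (44.4%), p65 alone at 139 (9.41%) and neither at 279 (18.9%). A KOLPS p65 peak was present at 38.1% of the sites with STAT5 in KO and 33.3% of those without, a difference of 4.8 points (−0.667 to 10.1). At equal STAT5 strength the difference was 13.6 points (6.39–20.8), with differences in strength left within the groups. The strongest shared sites all kept STAT5 in KO, so the strongest group was left out. Other strong groups held few sites without STAT5 in KO. The differences of 4.8 and 13.6 points thus cover different sites, and the second interval can be too narrow. Neither difference was taken at equal p65 strength.

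Cohesin was found at nearly all shared sites. SMC1 peaks were present at 93% (91.5–94.2) of them in WT and 98.2% (97.4–98.8) in WTLPS, and 89.4% (87.7–90.8) in KO and 89.2% (87.6–90.7) in KOLPS. At other STAT5 sites these shares were 50.8%, 48.7%, 41.9% and 29.4%, and over all STAT5 sites 58.4%, 57.7%, 50.5% and 40.2%. At the WTLPS p65 peaks without STAT5 they were 64.7%, 84.2%, 58.5% and 56.3%. As called, the SMC1 share was thus higher after LPS in WT but not in KO at p65 peaks without STAT5 as well. The KO list had a higher coverage than the KOLPS list (5.34 and 4.5). With the KO list thinned, the KO change at shared sites was 1.8 points (0.285–3.31). The p65 peaks without STAT5 were not compared in this way. Over the STAT5 summit alone, shared sites had SMC1 at 91.3%, 97.5%, 86.6% and 86.2%, and other STAT5 sites at 47.3%, 45.5%, 38.2% and 25.7%. Among sites with H3K27ac and no CTCF peak in the same condition, SMC1 was present at 95.2% of shared and 64.6% of other STAT5 sites in WT, and at 92.4% and 46% in KOLPS. The difference was thus also seen among sites chosen by the presence of H3K27ac and the absence of CTCF peaks. These sites were not compared at equal H3K27ac fold, STAT5 strength or peak width, and the cause of the difference was not tested.

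LPS raised the SMC1 share at shared sites in WT by 5.28 points (4.08–6.48), with peaks gained at 82 sites and lost at 4. In KO the change was −0.135 points (−1.67 to 1.4), with 66 gained and 68 lost. With the KO library thinned to the lower coverage of KOLPS (5.34 to 4.5 fragments per base), this change was 1.8 points (0.285–3.31). At other STAT5 sites, LPS changed the share by −2.03 points in WT and −12.6 points in KO. Thinned in the same way, the KO and KOLPS lists had SMC1 at 37.9% and 29.4% of these sites. The rule splits the 2 groups of sites by p65 in WTLPS alone, so it does not treat WT and KO equally. The groups also differed in STAT5 strength, peak width, H3K27ac and STAT motif. Of the 82 sites that gained SMC1 in WT, 41.5% (31.4–52.3) had a peak in KOLPS, against 93.2% (91.7–94.4) of those with SMC1 in both WT and WTLPS. A peak found in 1 of the 2 WT lists can lie near the threshold, and these groups were not compared at equal SMC1 strength. The coverage was 5.76 in WTLPS and 4.5 in KOLPS. SMC1 was present in all 4 conditions at 1233 shared sites (83.5%) and 24.3% of other STAT5 sites, and in none at 16 (1.08%) and 39.7%. The median SMC1 fold at shared sites was 8.9 in WT and 9.76 in WTLPS, against 7.42 in KO and 7.1 in KOLPS.

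**Figure D3:**
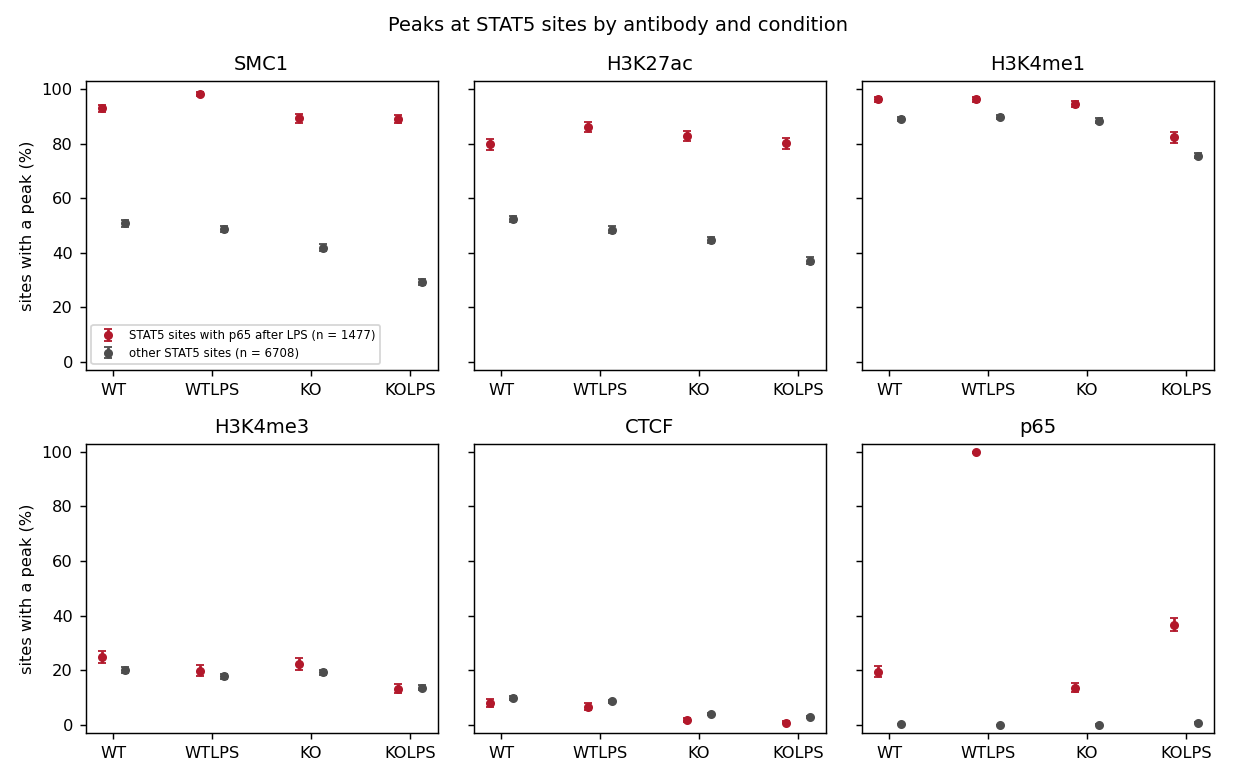
Share of STAT5 sites with a peak (percent, with 95% Wilson intervals) for 6 antibodies in WT, WTLPS, KO and KOLPS, at the 1477 shared sites (red) and the 6708 other STAT5 sites (grey). The p65 share in WTLPS is 100% and 0% by the rule, SMC1 stays between 89.2% and 98.2% at shared sites, and H3K4me3 and CTCF lie close together in both groups.

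Most shared sites were acetylated before LPS. H3K27ac peaks were present at 80.0% (77.8–81.9) of them in WT and 86.3% (84.5–88.0) in WTLPS, and 82.9% (80.9–84.8) in KO and 80.3% (78.2–82.2) in KOLPS. Other STAT5 sites had 52.4%, 48.5%, 44.7% and 37.2%, and all STAT5 sites 57.4%, 55.3%, 51.6% and 45.0%. The WTLPS p65 peaks without STAT5 had 59.1%, 71.8%, 60.7% and 61.5%. Over the STAT5 summit alone, H3K27ac lay at 62.0%, 70.6%, 62.2% and 54.1% of shared sites. Other STAT5 sites had it over the summit at 38.2%, 35.4%, 30.6% and 21.0%. With an overlap of at least 1 bp, LPS raised the share at shared sites in WT by 6.36 points (4.49–8.24), with 150 gained and 56 lost. The change in KO was −2.64 points (−4.47 to −0.812), with 76 gained and 115 lost. The KO change was −0.816 points (−3.76 to 2.13) where peaks had to reach a −log10 p of 10, an interval that includes 0, and −9.55 points (−12.2 to −6.94) where 50% of the peak had to be covered. At other STAT5 sites both changes were negative, −3.89 points in WT and −7.47 in KO. Because shared sites were chosen by p65 in WTLPS and not in KOLPS, the rule itself favours sites bound after LPS in WT. Of the shared sites that gained H3K27ac in WT, 58.0% (50–65.6) had it in KOLPS. The coverages of the H3K27ac libraries were 1.17, 1.2, 0.748 and 0.801, so the KO lists came from thinner libraries.

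The enhancer mark H3K4me1 was more frequent at the shared sites than the promoter mark H3K4me3. H3K4me1 lay at 96.3%, 96.5%, 94.7% and 82.4% of the shared sites in WT, WTLPS, KO and KOLPS, against 90.4%, 91.0%, 89.7% and 76.9% of all STAT5 sites. H3K4me3 lay at 24.7%, 19.7%, 22.1% and 13.1%, against 20.8%, 18.1%, 19.7% and 13.5% of all. From KO to KOLPS the H3K4me1 share changed by −12.3 points at shared sites and −12.8 at other STAT5 sites, and the H3K4me3 share by −9.0 and −5.62 points. H3K27me3 was rare, at 16 of the 1477 shared sites in WT (1.08%), 0.135% in WTLPS and in KO and none in KOLPS, which by the limit of 3 counts allows a share of up to 0.203%, against 2.41%, 1.19%, 1.86% and 0.819% of all STAT5 sites.

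CTCF bound few shared sites. The CTCF lists fell from 60537 peaks in WT to 20151 in KO and from 54020 in WTLPS to 11576 in KOLPS. At shared sites a CTCF peak was present at 7.85%, 6.43%, 1.56% and 0.812% in WT, WTLPS, KO and KOLPS, against 9.55%, 8.16%, 3.47% and 2.47% of all STAT5 sites. Of the 116 shared sites with CTCF in WT, 16.4% (10.7–24.2) kept it in KO, against 33.6% (30.1–37.3) of the other STAT5 sites with CTCF. These shares were not compared at equal CTCF strength. Shared sites with CTCF in WT had STAT5 in KO at 71.6%, and those without at 71.7%, with a difference of −0.16 points (−9.26 to 7.65). Their p65 shares in KOLPS were 44.8% and 36.0%, with a difference of 8.82 points (−0.29 to 18.2).

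Of the shared sites, 265 (17.9%, 16.1–20) overlapped a promoter, defined as the window reaching 2.5 kb both ways from where a gene's longest transcript starts. The share was 18.7% (17.8–19.6) at other STAT5 sites and 18.5% at all, and the difference of −0.737 points had an interval from −2.84 to 1.5. Exons held 5.28% and introns 37.2% of the shared sites. Outside genes lay 584 shared sites (39.5%), against 34.9% of other STAT5 sites, a difference of 4.61 points (1.89–7.37). The median distance from a shared site to the nearest protein-coding start was 29.7 kb, against 28.0 kb. STAT5 in KO was present at 72.5% of the promoter sites and 71.5% of the distal ones, and p65 in KOLPS at 106 of 265 and 36.0%, differences whose intervals included 0.

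Shared sites lay near many genes of the immune response. Within 50 kb of their start, 1460 of 21938 protein-coding genes had a shared site, or 6.66%. Of the protein-coding genes with any STAT5 site in that range, 22.0% had a shared site there, and of those with an H3K4me3 promoter peak in WT, 8.73% did. At promoters of protein-coding genes the share was 0.675%. The gene lists named below were drawn from general knowledge with earlier results of these data known. They are described by their counts beside these shares, and genes of a cluster can share a site.

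Chemokines and their receptors, which guide leukocytes, stood highest, with a shared site near 17 of 21 genes (81.0%), drawn from 20 different sites. The strongest shared site near Ccr2, the receptor for CCL2, lay 33.6 kb upstream, with a STAT5 fold of 50.7 in WT and 50.7 in KO, and a p65 fold of 7.01 in WTLPS without a peak in KOLPS. The site near Ccl9 lay at the Ccl6 promoter, with a STAT5 fold of 38.7 in WT and a weak p65 fold of 4.31. At the promoter of Ccl3, which encodes an inflammatory chemokine, p65 was bound in all 4 conditions, with folds of 9.72 in WT and 28.6 in WTLPS, and 9.38 in KO and 23.1 in KOLPS. That site had a peak in 23 of the 30 lists.

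Among cytokines, 11 of 24 genes (45.8%) had a shared site. Near Il1a, which encodes the cytokine IL-1α, the site whose sequence is given above lay 10.5 kb upstream, and STAT5 fold was 17.6 in WT and 17.4 in KO. Its p65 fold was 17.2 in WTLPS, 7.04 in KO and 10.5 in KOLPS, and its H3K27ac fold was 8.33 in WTLPS with no peak in WT. At the Il1b promoter, 0.149 kb upstream of the start, STAT5 fold was 13.7 in WT and 13.3 in KO, and p65 fold was 13.5 in WTLPS and 6.05 in KOLPS. SMC1 fold there was 4.06 in WT and 9.16 in WTLPS, and 6.63 and 6.19 in KO and KOLPS. Il12b, which encodes a subunit of IL-12 and IL-23, had 1 site 27 kb upstream with a STAT5 fold of 22.3 in WT and 17.0 in KO, whose p65 fold of 7.01 had no counterpart in KOLPS.

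STAT5 target genes, which the cytokine receptors induce, had a shared site at 8 of 26 (30.8%), and the GM-CSF receptor and JAK-STAT pathway at 9 of 25 (36.0%). Cish and Socs3 encode feedback inhibitors of this pathway. At the Cish promoter STAT5 fold was 68.7 in WT and 55.1 in KO, while p65 fold was 7.01 in WTLPS with no peak in the other 3 conditions, and the summits lay 591 bp apart. The site 22.6 kb downstream of the Socs3 start had p65 in all 4 conditions, at 7.59 in WT and 37.7 in WTLPS, and 9.38 in KO and 25.3 in KOLPS, and a STAT5 fold of 44.7 in WT and 42.9 in KO. Its SMC1 fold was 7.65, 23.9, 8.84 and 15.5 in WT, WTLPS, KO and KOLPS, the higher value after LPS in each genotype. The strongest shared site near Bcl6, a transcriptional repressor, lay 23.3 kb upstream with STAT5 folds of 31.8 and 29.2 in WT and KO, and p65 at 7.01 in WTLPS alone, while 1 of the 3 shared sites within 100 kb had p65 in KOLPS. The strongest site near Csf2rb2, which encodes a receptor chain related to Csf2rb, lay in an intron of Ncf4, 48.2 kb away, with STAT5 falling from 34.0 to 17.1.

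NF-κB subunits and feedback inhibitors had a shared site at 9 of 24 genes (37.5%) and the TLR pathway at 9 of 31 (29.0%). Near Nfkbia, which encodes IκBα, the site lay 27.7 kb downstream with a STAT5 fold of 9.02 in WT and 8.5 in KO, and p65 at 11.3 in WTLPS alone. SMC1 fold there was 3.9 in WT and 12.1 in WTLPS, against 5.84 in KO and 7.46 in KOLPS. The strongest shared sites near Tnfaip2 and Otulin, the latter a deubiquitinase that restrains NF-κB signalling, had STAT5 folds of 12.9 and 19.3 in WT and no p65 in KOLPS, while 1 of the 2 shared sites near Tnfaip2 had p65 in KOLPS. In an intron of Tlr4, the LPS receptor itself, STAT5 fold was 31.4 in WT and 25.1 in KO, and p65 fold was 8.76 in WT and 13.5 in WTLPS, without a peak in either KO list. The strongest shared sites near Irf5 and Irak2, a transcription factor and a kinase of TLR signalling, had STAT5 folds of 29.2 and 27.9 in WT and no p65 in KOLPS, while 1 of the 3 shared sites near Irak2 had p65 in KOLPS.

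Costimulatory and adhesion genes had a shared site at 5 of 10. At the promoter of Cd40, a costimulatory receptor, STAT5 fold was 11.6 in WT and 6.66 in KO, and p65 fold was 8.62 in WTLPS and 8.81 in KOLPS. Tnfsf4, the ligand of OX40, had a site 41.0 kb upstream with STAT5 folds of 24.9 and 18.9 and p65 folds of 7.01 and 11 in WTLPS and KOLPS. The strongest shared site within range of Cd86 lay in an exon of Ildr1 and lost p65 in KOLPS. LPS-induced enzymes had a shared site at 4 of 10. Near Acod1, which makes itaconate, p65 fold was 8.76 in WT, 18.9 in WTLPS and 8.26 in KOLPS, and STAT5 fold was 8.16 and 8.5. The strongest site near Ido1 had a STAT5 fold of 9.88 and lost p65 in KOLPS. The site within 50 kb of Ch25h, at 6.44, lost both factors. Of the 3 shared sites within 100 kb of Ch25h, with STAT5 folds up to 10.7, 1 had STAT5 in KO and 0 had p65 in KOLPS.

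Transcription factors had a shared site at 10 of 33 genes (30.3%), and phosphatases and mRNA decay feedback genes at 5 of 10. Cebpb, which encodes C/EBPβ, had a site 26.3 kb away with STAT5 folds of 21.5 and 17.4 and p65 folds of 6.47 in WTLPS and 6.6 in KOLPS. Irf4, a factor of dendritic cell development, had its strongest site in an intron of Dusp22, with STAT5 folds of 30.1 and 27 and p65 folds of 7.01 in WT and 10.2 in WTLPS. Near Zfp36, which encodes the mRNA decay factor tristetraprolin, STAT5 fold was 40.8 and 35.1 and p65 fold was 7.01 in WT, 8.62 in WTLPS and 6.05 in KOLPS. The annotated body of Dusp1, a MAP kinase phosphatase, held a site at 62.3 and 49.9 with p65 at 9.16 in WTLPS alone, 28.1 kb from the start of its longest annotated transcript. Ier3, an early response gene, had a site 8.26 kb upstream at 21.0 and 11.1 with p65 folds of 8.62 and 11 in WTLPS and KOLPS.

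Dendritic cell markers had a shared site at 8 of 14 genes (57.1%) and markers of other cells at 2 of 16. H3K4me3 in WT lay at 13 of the 14 dendritic cell promoters, all but H2-Ab1, and at 4 of the 16 of other cells, namely Pax5, Cdh5, Col1a1 and Itga2b. The site near the MHC class II genes H2-Ab1 and H2-Aa lay in an intron of H2-Ob, with STAT5 folds of 28.8 and 29.6 and p65 folds of 26.9 in WTLPS and 7.71 in KOLPS. Its H3K27ac fold was 4.33 in WT and 9.46 in WTLPS, and 12 in KO and 25 in KOLPS, and a CTCF peak lay there in WT and in KO. The site near Ncr1, a natural killer cell receptor gene, had STAT5 folds of 6.87 and 6.29 and p65 at 11.9 in WTLPS alone.

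**Figure D4:**
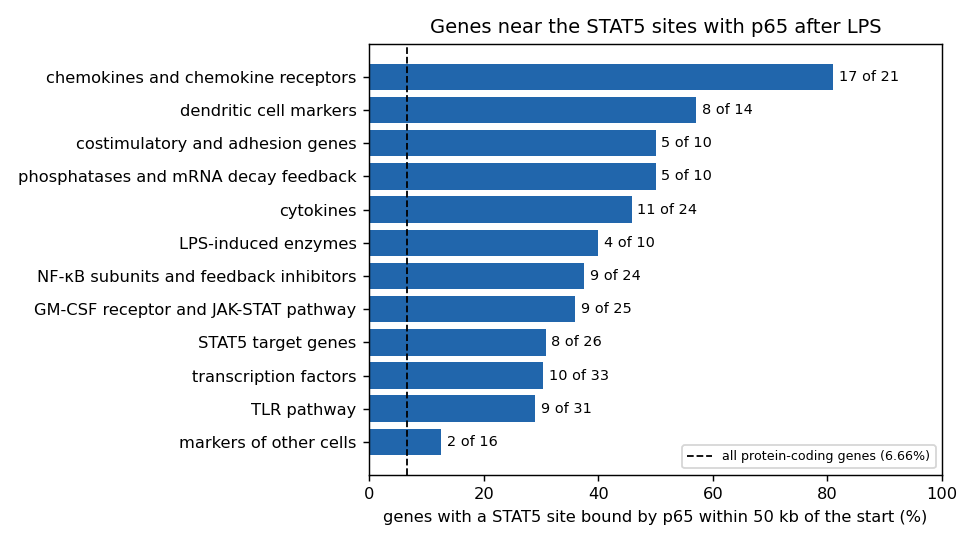
Share of the genes of each list (percent, bars; counts beside them) with a shared site within 50 kb of the start, with the share of all protein-coding genes, 6.66%, as a dashed line. Chemokines and chemokine receptors have the longest bar (17 of 21), and markers of other cells the shortest (2 of 16).

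Several genes lay among many shared sites. Cd69, an early activation antigen, had 8 within 100 kb, of which 6 had STAT5 in KO, 4 had p65 in KOLPS and 3 had p65 before LPS, and all 8 had SMC1 and H3K27ac in all 4 conditions. The neighbouring 4922502D21Rik and Clec2d had 7 and 6. Syk, a kinase of immune receptor signalling, had 6, of which 3 had STAT5 in KO and 3 had p65 in KOLPS. Socs3 and its neighbour Pgs1, Dusp22, the metabolite receptor genes Hcar1 and Hcar2, and Ccl6 each had 5, as did Ccl9, Denr, Itgax and Tarm1, which tie with Ccl6 for the last place among the 10. Around Hcar2, H3K27ac lay at 2 of the 5 sites in WT and 5 in WTLPS, and 1 in KO and 3 in KOLPS. Around Itgax, which encodes CD11c, 4 of 5 had STAT5 in KO and 1 of 5 had p65 in KOLPS. Across the genome, 351 shared sites (23.8%) lay within 12.5 kb of another, and these had STAT5 in KO at 76.4% against 70.2% of the solitary ones, a difference of 6.1 points (0.721–11.1) that was 3.73 points (−0.422 to 7.89) at equal strength.

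The 10 strongest shared sites by STAT5 in WT had folds from 55.4 to 82.0, and all 10 kept STAT5 in KO, with folds from 39.6 to 83.9. The strongest, 34.6 kb downstream of the start of Fgd2, had p65 in all 4 conditions, with folds of 9.34 in WT and 21.6 in WTLPS, and 5.86 in KO and 17.6 in KOLPS. The site 3.56 kb upstream of Bcl2a1a, which encodes a survival protein of the BCL2 family, was the single one of the 10 with a higher STAT5 fold in KO (83.9) than in WT (58.4). Its p65 fold was 33.4 in WTLPS and 14.9 in KOLPS, and its H3K27ac fold was 17.9 in WT and 52.3 in WTLPS, and 18.3 in KO and 19.4 in KOLPS. Bcl2a1a has near-identical copies, so the placement of its reads is uncertain. The other 8 lay at Cish, in Dusp1, in Creb5, in 4930459C07Rik, at the promoters of Gm32568 and Gm2349, 144 kb from Tmem167 and 357 kb from Rnf144a. The p65 peak was absent in KOLPS at 4 of the 10, those at Cish, Rnf144a, Dusp1 and Creb5.

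**Figure D5:**
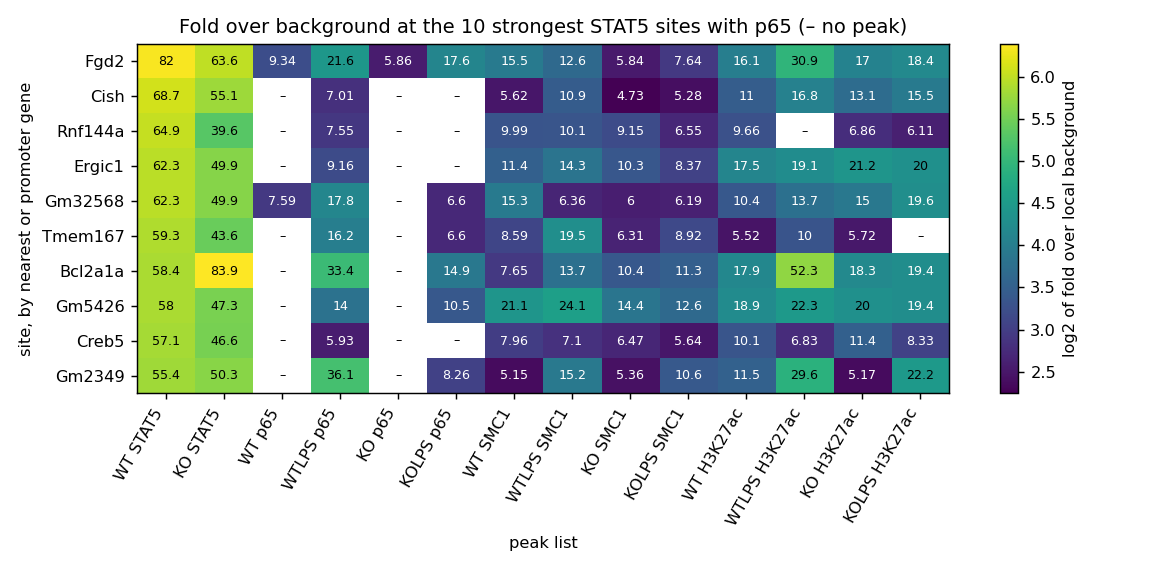
Fold over local background (numbers; colour on a log2 scale) in 14 peak lists at the 10 shared sites with the strongest STAT5 peak in WT, named by promoter gene or nearest protein-coding start (Ergic1 marks the site in Dusp1, and Gm5426 that in 4930459C07Rik). STAT5 is high in both lists, from 39.6 to 83.9, whereas p65 is absent in KOLPS at 4 sites.

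Shared sites without STAT5 in KO were weaker. The strongest of these had a WT fold of 15.0, 553 kb upstream of Sall3, and was followed by sites near Cd47, C330018D20Rik, Il17b and Rassf6, each at 11.6. Of these 5, the site near Il17b alone had p65 in KOLPS, at 6.05, and the site near Rassf6 had no SMC1 or H3K27ac peak in any condition. The strongest sites without p65 in KOLPS were those at Cish, Rnf144a, Dusp1 and Creb5 and 1 that lay 3.96 kb upstream of Dusp16, a phosphatase of JNK, with STAT5 folds of 55.0 and 39.2 and p65 at 7.55 in WTLPS. Their p65 folds in WTLPS ranged from 5.93 to 9.16, below the median of 12.4 at the shared sites that kept p65.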

How the data were processed

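Tagmentation ChIP-seq libraries with paired-end reads were aligned by the authors to mm10 with bwa, cleared of duplicates with picard and searched for peaks against input with MACS2. The submitters' processing notes list BWA 0.7.12, Picard 1.77 and MACS2 2.1.2. The study's methods give other versions. The deposited columns give every peak a fold (the ratio between its pileup and the local background), −log10 values of p and q, a display score that was not used, and in narrow lists a summit. The 30 lists held 504 to 96475 peaks. Lists for 4 input samples were not used here. Each antibody and condition has 1 list, and the reporting summary says, for the experiments in general, that replicates were merged before the data were processed again. Only the names of the p65 lists mention a blacklist filter.

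Overlaps of at least 1 bp counted as shared. Members and gene lists were chosen with earlier results of these data known. Shares have 95% Wilson intervals, differences between groups Newcombe intervals, and changes over the same sites an interval from the sites that changed. No p-value was computed, since there were no replicates. Neighbouring sites are not independent, which the intervals do not cover. Comparisons at equal strength were made within 10 groups of −log10 q, weighted by the first group of each comparison, which leaves differences in strength within the groups. Strength groups without sites on both sides of a comparison were left out. Read numbers are not in the lists, so coverage was recovered from fold and −log10 p, both of which MACS2 derives from a pileup and a background level. At least 99.96% of narrow peaks with −log10 p under 25 matched within 0.002. Lists were thinned to a common coverage in alternatives. Gene starts (GENCODE vM21) are those of the longest transcript. Sequences were read from GRCm38.p6 with pysam 0.24.0. Named were, per list, the 3 genes with the strongest shared site, the 10 strongest sites, the 10 genes with most sites within 100 kb, the 5 strongest sites without KO STAT5 or KOLPS p65, and the sequences given. Other genes and sites named with values (Ccl3, and the marker genes) were chosen after their values were seen. The intervals and comparisons were tested on simulated data. Python 3.11.15, numpy 2.4.6 and pandas 2.3.3 were used. Results for some genes that the naming rule covers are not reported here.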

Additional observations from a re-analysis of the deposited data

Results flagged for a closer look

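The LPS change of the H3K27ac share at shared sites had opposite signs in WT and KO cells, 6.36 points in WT and −2.64 points in KO, and the KO change minus the WT change was −9.0 points (−11.4 to −6.64, counting error only). At a −log10 p of at least 10 the KO change was −0.816 points, with an interval that includes 0 (−3.76 to 2.13), and with 50% of the peak covered it was −9.55 points (−12.2 to −6.94). With 1 list per condition, this difference was not tested against the spread between replicates. The rule required a p65 peak in WTLPS and not in KOLPS, so the choice of sites treats the genotypes unequally. The H3K27ac libraries differed in coverage between the genotypes (1.17 and 1.2 against 0.748 and 0.801). Thinned to the coverage of the KO and KOLPS lists, the WT and WTLPS lists gave shares of 78.2% and 85.2%, beside 82.9% and 80.3% in KO and KOLPS.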

How the results depend on the processing

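Of 72 values under alternatives for the 11 main results, 53 lay inside the 95% interval of the reported value (for the number of sites, within 1.5 times), 19 lay outside and 0 turned the direction of a value whose interval excluded 0. At −log10 p of at least 10 the shared sites numbered 735, p65 was kept at 44.2%, the LPS changes in WT were 8.84 points for SMC1 and 12.2 for H3K27ac, the H3K27ac change in KO was −0.816 points with an interval that includes 0, and the STAT motif share was 27.6%. With 50% of the peak covered, STAT5 was kept at 64.5% and p65 at 31.9%, p65 peaks with STAT5 exceeded those without by 10.8 points, and H3K27ac changed by −9.55 points in KO. With the summit inside the partner peak, STAT5 was kept at 68.0% and H3K27ac changed by 8.84 points in WT and −8.37 in KO. The promoter share was 10.2% at 1 kb, 24.9% with the starts of all transcripts and 10.3% with protein-coding genes only, and the STAT motif share 12.7% within 25 bp and 35.4% within 100 bp. Thinned to a common coverage, SMC1 changed by 1.8 points in KO. Within groups of peak width, an alternative chosen after seeing the data, the STAT5 difference was 0.232 points. No paired analysis was possible because each group has a single list. The cause of these shifts was not tested beyond the construction of each alternative. Peak presence depends on depth and on a threshold, so a site without a peak can still be bound.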
